A study of Mus musculus with 45 samples.

Results

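Short interspersed elements (SINEs) are non-autonomous retrotransposons of the mouse genome, and 35 of the 1146 repeat families counted in these libraries carry the class label SINE. Members were taken by that label alone. They divide by the family part of their name into 16 Alu families (the B1 and proto-B1 elements), 5 B2 families, 4 B4 families, 4 ID families, 4 MIR families and 2 Deu families. A single further family labelled "SINE?" was left out.

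SINEs are copied by the reverse transcriptase of LINE-1 elements and encode no protein. B1 elements descend from 7SL RNA, the RNA scaffold of the signal recognition particle, whereas B2 and ID elements descend from tRNA-like genes, and all of these can be transcribed by RNA polymerase III from a promoter inside the element. B4 elements combine ID-like and B1-like sequence, and MIR elements are ancient and no longer move. B1 and B2 copies are dense in introns and in the transcribed ends of genes, so RNA-seq of polyadenylated RNA counts SINE sequence embedded in mRNA along with free SINE RNA. The 2 sources cannot be told apart in these data.

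The 45 libraries, 3 per group, came from mouse embryonic stem cells (mESCs) in 4 experiments on the H3K9 methyltransferase EHMT2. In the time course and the washout, EHMT2-dTAG clones, in which the endogenous protein carries a degradation tag, received DMSO or the degrader dTAG for 24 h, 7 d or 15 d, or dTAG for 7 d and then no degrader for 8 d (Recovery). Each of these groups held 1 library from each of 3 clones, grown on fibroblast feeders. In the sorting experiment, an EHMT2-dTAG line with a GFP reporter under a MERVL promoter was treated for 72 h, and cells without GFP (mESC) were sorted from 2-cell-like cells that express it (2CLC). In the Dppa4 experiment, J1 mESCs, either WT or Dppa4 KO, were kept for 48 h in DMSO or in UNC0638, which blocks the catalytic activity of EHMT1 and EHMT2. The study's methods give 3 clonal lines; the labels do not tie them to libraries, so p-values measure only the spread between the 3 libraries of a group. For the first 3 experiments the tables used here hold a single mean per group, so their values carry no SD, no n and no test. The Dppa4 experiment has a value for every library, and all tests below come from it.

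The Dppa4 libraries held 8399885 to 12710949 gene reads and 313737 to 807204 repeat reads, of which 114317 to 213402 fell in SINEs; the depth of the group means is unknown. Dppa4 itself lay between 700 and 920 normalized counts (reads divided by the library's size factor) in the 6 WT libraries and was 0 in all 6 KO libraries. The Ehmt2 transcript says nothing about the degron, which acts on the protein. The 7 pluripotency markers summed to 41941 to 63298 and the 9 feeder markers to 3456 to 6556, with Lum at 0 in 11 libraries. The library Dppa4KO_UNC0638 replicate 3 stood apart: it was the lowest of the 12 for 30 of the 35 SINE families. The 3 libraries with the most gene reads were WT_DMSO replicate 3, WT_UNC0638 replicate 3 and Dppa4KO_UNC0638 replicate 3. The same 3 had the lowest Tfcp2l1, a naive pluripotency factor (3102, 3512 and 3258, against 4684 to 8869 in the other 9). The other pluripotency markers were mixed. Pou5f1 was the highest of its group in each of these 3 (12960, 9622 and 16985). Sox2 and Klf4 were the lowest of their group in WT_UNC0638 replicate 3 (4953 and 1178) and in Dppa4KO_UNC0638 replicate 3 (5460 and 2057). In WT_DMSO replicate 3 neither was the lowest. A retroviral LTR, RLTR17B_Mm, took 26.7% of the repeat reads in Dppa4KO_DMSO replicate 3 and 14.6% in Dppa4KO_UNC0638 replicate 2.

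Bc1, a neuronal noncoding RNA of 168 bases (chr7:144914470-144914637, plus strand, GRCm38), is shown in full from the GENCODE transcripts because its 5′ domain is the master sequence of the ID families. Capitals mark the letters GGTTC, part of the internal B box of tRNA-like promoters, which start at position 57 and were searched on both strands. The letters are common, and 40.0% of 32851 RefSeq promoter windows of 300 bases hold them on either strand. Consensus sequences of the B2 families were not used here.
Bc1: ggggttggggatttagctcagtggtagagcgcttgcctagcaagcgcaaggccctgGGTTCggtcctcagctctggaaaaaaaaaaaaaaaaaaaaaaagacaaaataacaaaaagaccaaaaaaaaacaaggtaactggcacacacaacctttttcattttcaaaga

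In bulk EHMT2-dTAG cultures, 2 young B2 families stood apart from the other SINEs. With DMSO for 24 h, the authors' means were 13703 normalized counts for B2_Mm1a and 10503 for B2_Mm1t, while the older B2 relative B3 stood at 28272 and the B1 family B1_Mus1 at 15101. Family counts depend on the number and length of copies, so these levels do not rank the families by activity. In that group the Alu families held 38.5% of all SINE counts, B2 31.0%, B4 22.7%, MIR 4.71%, ID 3.05% and Deu 0.06%.

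After 24 h of dTAG, most SINE families were lower in the group mean. The median log2 ratio to DMSO (pseudocount 1) was −0.40 over the 35 families, against −0.25 over the 724 repeat families with a mean of at least 10. B3 went from 28272 to 21354, B1_Mm from 5273 to 3854, ID from 904 to 688 and MIR from 4063 to 3155. The Alu, B2, B4, ID and MIR medians were −0.42, −0.28, −0.41, −0.40 and −0.40. Only B2_Mm1a (15870, log2 ratio 0.21), B2_Mm1t (11644, 0.15) and the sparse FAM (14 to 15 counts) were above 0. No SINE family reached 1.5-fold in either direction, where 3.45% of all families did upward and 9.25% downward.

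After 7 d of dTAG the gap between B2_Mm1 and the rest was wider. B2_Mm1a was at 28971 against 18948 with DMSO (1.53-fold), and B2_Mm1t at 19904 against 14173 (1.40-fold). The remaining 33 families were all below 0, and the median over the 35 was −0.23, against −0.12 over all repeat families. B2_Mm2, the third young B2 family, was at 14467 against 15584. B2_Mm1a was the only SINE family at least 1.5-fold up (7.18% of all families) and FAM, at 9 against 16 counts, the only one at least 1.5-fold down (8.98%). The same pair stood apart with time in culture: from 24 h to 7 d with DMSO alone, B2_Mm1a went from 13703 to 18948 (log2 ratio 0.47) and B2_Mm1t from 10503 to 14173 (0.43), while the SINE median was −0.14. In that control comparison, 0 SINE families were past 1.5-fold (2.35% of all families up, 4.42% down). Markers of 2CLC were higher with dTAG: all 9 listed were above DMSO at both times, with sums of 2456 against 194 at 24 h and 7540 against 313 at 7 d. Of the 7 feeder markers with enough counts, 4 were above DMSO at 24 h (median log2 ratio 0.39) and all 7 at 7 d (0.60). Their sums, mostly Fn1, were 13998 against 16417 and 11986 against 11169. Whether a family is higher in every cell or only in more cells of a type cannot be told apart in bulk samples, and the part of these cells in the B2_Mm1 values was not tested.

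In the washout experiment B2_Mm1a and B2_Mm1t had the highest counts of all SINE families in each of the 3 groups. B2_Mm1a stood at 73495 with DMSO for 15 d, 83720 with dTAG for 15 d and 50121 after recovery, and B2_Mm1t at 49331, 52998 and 33878. The median log2 ratio of the SINE families to DMSO at 15 d was 0.05 (−0.26 when scaled to the total of all repeat families), against 0.27 over 640 repeat families. B2_Mm1a was at 0.19 and B2_Mm1t at 0.10, which turned to −0.12 and −0.21 on that scaling. B2_Mm2 had the highest ratio (21122 against 16781, log2 ratio 0.33). At 15 d, 0 of the 34 SINE families with enough counts were past 1.5-fold, against 25% of all families up and 1.25% down. FAM had too few counts to be compared here.

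Recovered cells had less B2_Mm1 than both other groups of the washout. Against DMSO at 15 d, B2_Mm1a and B2_Mm1t were 1.47-fold and 1.46-fold lower, while the SINE median was 0.21 and 28 of 34 families were above 0. The SINE values were close to those of all 640 repeat families, with a median of 0.25 and 81.25% above 0. 0 SINE families were past 1.5-fold there (10.3% of all families up, 0.625% down). Against dTAG at 15 d, B2_Mm1a was 1.67-fold and B2_Mm1t 1.56-fold lower, the only SINE families past 1.5-fold down (13.9% of all families, with 2.81% up). Scaled to the repeat total, they were still lower (log2 ratios −0.47 and −0.38) but no longer past 1.5-fold, with 0 SINE families down and 1 up. Of all 640 families, 45 were down and 84 up on that scaling. Without that scaling, B2_Mm2 was just inside the limit (14137 against 21122, 1.49-fold lower), and the SINE median was 0.16, against −0.05 over all families. Feeder fibroblast markers were lower in recovered cells too: 7 of the 9 listed had enough counts, all 7 were below their DMSO value, and they summed to 4242 in Recovery, 7801 with DMSO and 10040 with dTAG. The defining markers Dcn and Lum were at 6.3 and 0 in Recovery and at 5.1 and 1.2 with DMSO. The 9 markers of 2CLC summed to 924 in Recovery, 579 with DMSO and 14743 with dTAG. Their part in the B2_Mm1 values was not tested.

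**Figure D1:**
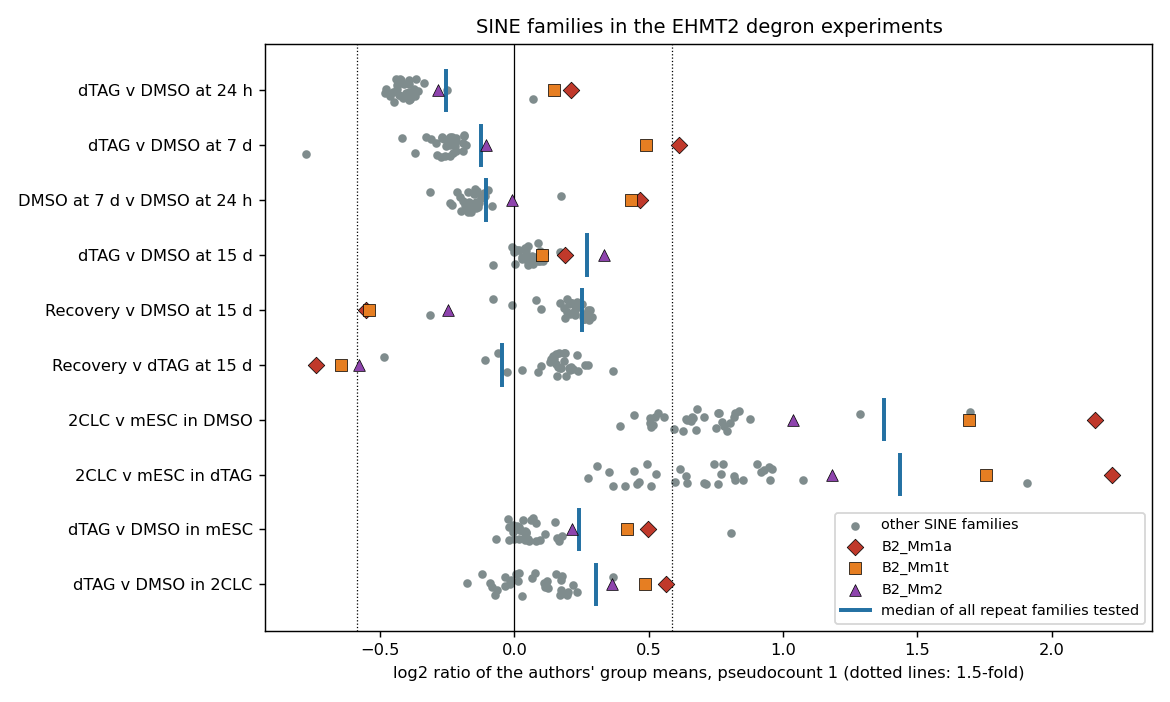
Log2 ratios (pseudocount 1) of the authors' group means for every SINE family with enough counts, in the 10 comparisons of the degron experiments; each grey point is a family, coloured symbols are 3 young B2 families and blue bars the median of all repeat families tested. B2_Mm1a and B2_Mm1t lie to the right of most SINE families in 8 comparisons, except in those with Recovery, where they lie furthest left. Relative to the total of all repeat reads, the SINE medians of 2CLC against mESC turn to −1.64 and −2.09.

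Relative to the other 33 SINE families, B2_Mm1a and B2_Mm1t together came to 9.83% with DMSO and 14.8% with dTAG at 24 h, and to 14.8% and 25.7% at 7 d. In the washout they came to 87.1% with DMSO, 90.5% with dTAG and 53.7% after recovery. This ratio is taken within a group, so it does not depend on the scaling between libraries, but it was chosen after the values had been seen and is given without a test. The time course and the washout were separate experiments in separate tables, and the days in culture and the experiment cannot be told apart. In the sorted cells the ratio was 4.07% in DMSO_mESC and 5.30% in dTAG_mESC, and 9.33% in DMSO_2CLC and 12.4% in dTAG_2CLC. It was thus higher with dTAG than with its own DMSO control in all 5 such pairs of group means.

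**Figure D2:**
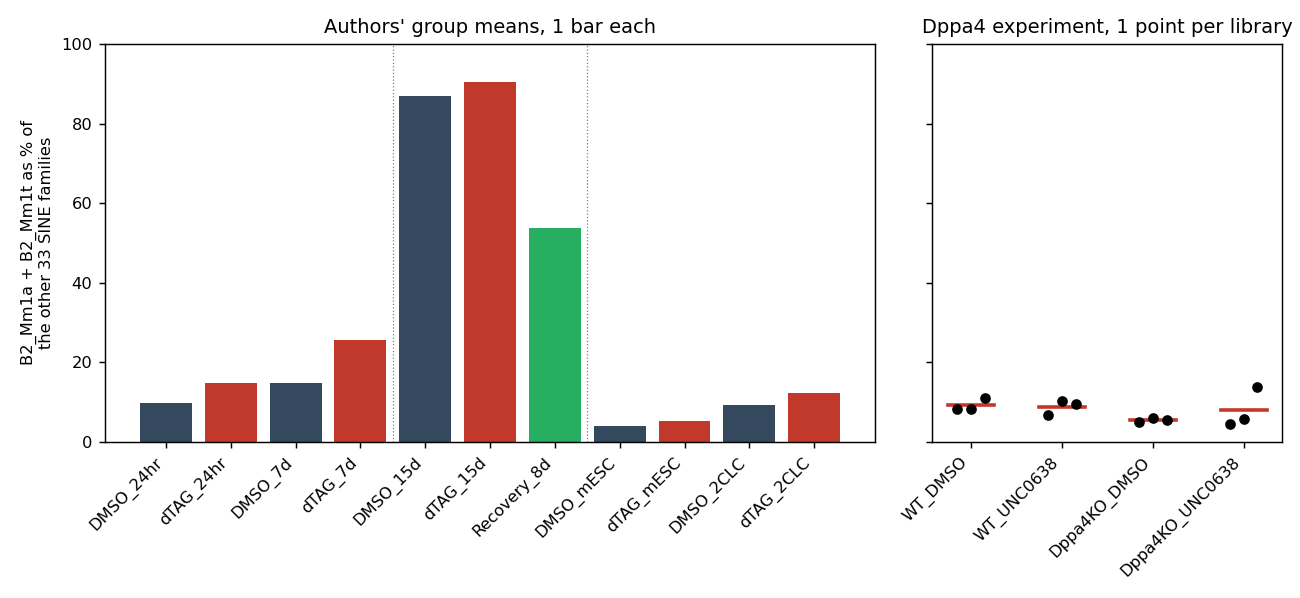
Summed normalized counts of B2_Mm1a and B2_Mm1t as a percentage of those of the other 33 SINE families. Left, 1 bar per authors' group mean (dark, DMSO; red, dTAG; green, Recovery), with the tallest bars at 87.1% and 90.5% in the washout; right, 1 point per library of the Dppa4 experiment with the mean as a red line, from 4.46% to 13.7%.

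In sorted cells with DMSO, all 35 SINE families were higher in 2CLC than in mESC by the authors' size factors. When scaled to the total of all repeat families, 0 of 35 were. Over all repeat families, 97.0% were higher by the size factors and 18.3% on that scaling. With DMSO, B2_Mm1a went from 4964 to 22183 (4.47-fold), B2_Mm1t from 5759 to 18592 (3.23-fold), B2_Mm2 from 17813 to 36514 (2.05-fold) and B3 from 31818 to 54380 (1.71-fold). The 4 MIR families had a median log2 ratio of 0.72, the 4 B4 families 0.78, the 16 Alu families 0.65 and the 4 ID families 0.52. The lowest was ID (1090 to 1433, 1.31-fold). AmnSINE2, an old and sparse Deu family, went from 26 to 87 counts. Of the 35 families, 26 were at least 1.5-fold up and 0 down, whereas 86.8% of 911 repeat families were up and 0.768% down. The SINE median of 0.68 was below the median of 1.38 over all families. SINE counts were 40.7% of all repeat counts in mESC and 14.3% in 2CLC, and MERVL-int with its LTR MT2_Mm, the retrovirus whose promoter drives the reporter, made up 1.15% and 54.5%. Scaled to the total of all repeat families, the SINE median was −1.64, with B2_Mm1a at −0.16 and B2_Mm1t at −0.63, against a median of −0.94 over all families.

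With dTAG the 2CLC values were again higher by the authors' size factors and lower on scaling to the repeat total (median −2.09). B2_Mm1a went from 7008 to 32771 (4.68-fold), B2_Mm1t from 7698 to 26009 (3.38-fold), B2_Mm2 from 20674 to 46928 (2.27-fold) and MIR from 4378 to 9231 (2.11-fold), while ID went from 1114 to 1347 (1.21-fold). Of the 35 families, 24 were past 1.5-fold up and 0 down, against 82.9% and 1.43% of all families. Scaled to the repeat total, 0 were up and 35 down, with B2_Mm1a at −0.61 and B2_Mm1t at −1.08. Of all 911 families, 44 were up and 697 down on that scaling, with a median of −1.40. The SINE median was 0.74 and that of all families 1.44. The whole SINE class came to 36.4% of repeat counts in dTAG_mESC and 9.30% in dTAG_2CLC.

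Within each sorted population, most SINE families lay close to DMSO. In GFP-negative mESC the median log2 ratio to DMSO was 0.04, with B2_Mm1a at 0.50, B2_Mm1t at 0.42 and all 4 MIR families below 0. FAM, at 18 against 10 counts, was the only family past 1.5-fold up and 0 were down (18.7% and 0.988% of all families). In 2CLC the median was 0.11, with B2_Mm1a at 0.56, B2_Mm1t at 0.48 and B2_Mm2 at 0.36, and 0 families were past 1.5-fold in either direction (24.9% up and 2.96% down over all families). Scaled to the repeat total, the median in mESC was −0.22, with B2_Mm1a at 0.24, B2_Mm1t at 0.16 and 0 SINE families past 1.5-fold. Of all 911 families, 89 were up and 36 down there. In 2CLC that scaling turned all SINE families below 0, with a median of −0.66, B2_Mm1a at −0.21 and B2_Mm1t at −0.29. Past 1.5-fold down were 27 of 35 SINE families and 345 of all 911, with 14 of all families up. The median over all families was −0.47. Marker levels moved with the gate: in 2CLC against mESC with DMSO the 9 markers of 2CLC summed to 150396 against 813, and the 7 pluripotency markers to 27241 against 48941. Nanog alone of these 7 was higher in 2CLC (8924 against 6350). Of the 6 feeder markers with enough counts, 5 were higher in 2CLC (median log2 ratio 0.86), while the abundant Fn1 was lower (−0.98) and took their sum from 6293 to 3930. GFP-negative cells also differed by treatment, with a 2CLC sum of 10849 with dTAG and 813 with DMSO. Feeder markers were higher with dTAG in both populations, 6 of 6 in mESC (median 1.13, sums of 7761 and 6293) and 5 of 6 in 2CLC (1.32, 6547 and 3930). The part of these cells in the SINE values was not tested.

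In WT mESCs treated with UNC0638, 0 SINE families were called. B3 read 15327, 15392 and 14642 normalized counts with DMSO and 19961, 15623 and 18793 with UNC0638. The groups of B3 did not overlap, but WT_UNC0638 replicate 2 lay just above the highest DMSO library. ID read 498, 458 and 462 with DMSO and 674, 548 and 598 with UNC0638, the largest increase among the well-covered families (log2 fold change 0.35 ± 0.24 SE, limma adjusted p = 0.472). B2_Mm1a read 6342, 5781 and 7881 with DMSO and 6028, 7974 and 8050 with UNC0638, with overlapping groups (0.14 ± 0.26, limma adjusted p = 0.769). In all, 0 of 35 SINE families and 0% of the 782 families tested were called at an adjusted p under 0.05 by limma; edgeR and DESeq2 also called 0, and at an unadjusted p under 0.05 limma had 86 families, of which 0 were SINEs.

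The median log2 fold change was 0.24, with 34 of 35 families above 0, but −0.16 with 2 above 0 when scaled to the total of all repeat families. Over all 782 repeat families the median was 0.43 with 87.6% above 0, and 0.04 with 54.1% above 0 on that scaling. The 9 markers of 2CLC summed to 108, 399 and 1705 with DMSO and 886, 1157 and 7064 with UNC0638, with overlapping groups. MERVL-int had a log2 fold change of 2.10 ± 0.53 (limma adjusted p = 0.152). Their part in the SINE values was not tested. The 3 UNC0638 libraries lay above all 3 DMSO libraries in 14 SINE families (B1F1, B1_Mur1, B1_Mur2, B1_Mur4, PB1, PB1D9, PB1D10, B2_Mm2, B3, B4A, RSINE1, ID, ID2 and ID4_) and below them in 0, where 27.4% of all families lay above and 0.512% below. SINEs made up 35.3% ± 3.97 (SD, n = 3) of repeat reads with DMSO and 31.5% ± 4.58 with UNC0638, a difference of −3.76 points (exact two-sided permutation test, p = 0.5, adjusted p = 0.8 over 3 comparisons, smallest possible p = 0.1). As a share of gene and repeat reads together they made up 1.29% ± 0.09 and 1.62% ± 0.16, with no overlap (p = 0.1, the smallest that this exact permutation test can give).

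**Figure D3:**
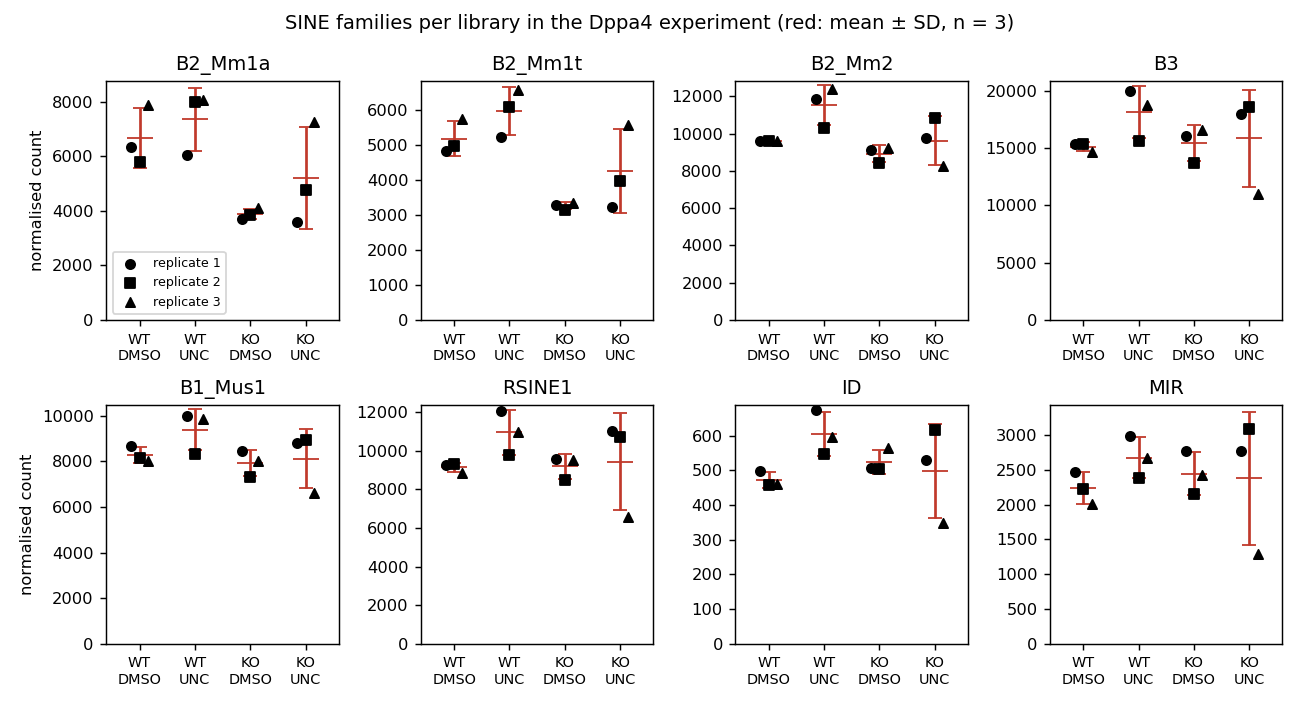
Normalized counts of 8 SINE families in the 12 libraries of the Dppa4 experiment, 1 symbol per library, with the group mean ± SD in red (n = 3); each vertical axis starts at 0. B2_Mm1a and B2_Mm1t are lower in all 3 Dppa4KO_DMSO libraries than in any WT_DMSO library, and Dppa4KO_UNC0638 replicate 3 (triangle) is the lowest library for B3, RSINE1, ID and MIR but the highest of its group for B2_Mm1a and B2_Mm1t.

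In Dppa4 KO cells, UNC0638 gave a mixed picture that turned on a single library. B3 read 16029, 13684 and 16589 with DMSO and 18004, 18557 and 10985 with UNC0638. MIR read 2765, 2154 and 2420 with DMSO and 2766, 3082 and 1292 with UNC0638. In both families replicate 3 of the treated group was the lowest of all 12 libraries while the other two treated libraries were at or above the highest control. B2_Mm1a went the other way, at 3713, 3842 and 4093 with DMSO and 3595, 4779 and 7256 with UNC0638 (log2 fold change 0.36 ± 0.26, limma adjusted p = 0.983). limma called 0 SINE families and 0% of all families, with 0 SINE families and 41 of all families at an unadjusted p under 0.05; edgeR and DESeq2 called 0 SINE families. The SINE median was −0.02 with 16 families above 0, and 0.22 with 34 above 0 without Dppa4KO_UNC0638 replicate 3. Over all families it was 0.05 with 54.7% above 0, and 0.27 with 74.6% above 0 without that library. The groups were apart in 0 SINE families, against 4.73% of all families above and 1.66% below. The SINE share of repeat reads was 33.8% ± 7.69 with DMSO and 35.9% ± 4.49 with UNC0638 (exact permutation p = 0.6, adjusted p = 0.8).

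Whether the inhibitor acted differently in the 2 genotypes was tested by the interaction. limma called 0 SINE families and 0% of all families, with 0 SINE families and 42 of all families at an unadjusted p under 0.05, and edgeR and DESeq2 called 0. The median difference, KO minus WT, was −0.25 over the SINE families and −0.37 over all families, and without Dppa4KO_UNC0638 replicate 3 it was −0.01 over the SINE families. B2_Mm1a (0.22 ± 0.37) and B2_Mm1t (0.14 ± 0.34) were the 2 SINE families above 0, against 24.3% of all families. Both were highest of their group in Dppa4KO_UNC0638 replicate 3 (7256 against 3595 and 4779, and 5598 against 3224 and 3980). Without that library 13 SINE families were above 0, against 37.1% of all families, so the 2 do not stand apart independently of it.

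In Dppa4 KO cells without inhibitor, the B2_Mm1 families had the lowest fold changes of the SINEs. Dppa4 is a small DNA-binding protein that helps switch on the 2-cell programme, including MERVL. B2_Mm1a read 6342, 5781 and 7881 in WT and 3713, 3842 and 4093 in KO. B2_Mm1t read 4832, 4980 and 5767 in WT and 3304, 3152 and 3358 in KO. Every KO library of both families lay below every WT library. The log2 fold changes were −0.77 ± 0.26 for B2_Mm1a and −0.66 ± 0.24 for B2_Mm1t, with limma adjusted p = 0.329 and 0.382 over the 782 families, so neither was called.

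Both families passed the threshold in 2 other settings. When genes and repeat families were fitted and adjusted together, adjusted p was 0.043 for B2_Mm1a and 0.040 for B2_Mm1t by limma, and without Dppa4KO_UNC0638 replicate 3, a library outside this comparison that feeds the shared estimate of the spread, it was 0.044 for both. The B2_Mm1 ratio to the other SINE families was 8.18%, 8.29% and 11.1% in WT_DMSO and 5.10%, 5.92% and 5.55% in Dppa4KO_DMSO. It ran from 6.68% to 10.3% in WT_UNC0638, with a mean of 8.81% against 9.18% in WT_DMSO. In Dppa4KO_UNC0638 the ratio was 4.46% and 5.78% in 2 libraries and 13.7% in replicate 3.

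Among the other SINE families, B2_Mm2 read 9633, 9626 and 9618 in WT and 9130, 8409 and 9234 in KO, again all below, but with a log2 fold change of −0.11 ± 0.23 (limma adjusted p = 0.999). ID was the only family with all KO libraries above WT (506, 504 and 564 against 498, 458 and 462). MIRc had the highest log2 fold change (0.17 ± 0.25), and the median over the 35 families was −0.01, against 0.03 over all families. limma called 0 SINE families, against 0.639% of all families (5 of 782). At an unadjusted p under 0.05 limma had 52 families, of which 2 were SINEs, both B2_Mm1. edgeR and DESeq2 called 0 SINE families, and 5 of 782 and 7 of 1072 among all families. The KO libraries lay above all WT libraries in 1 SINE family and below in 3, against 5.88% and 5.12% of all families. SINEs made up 35.3% ± 3.97 of repeat reads in WT and 33.8% ± 7.69 in KO (exact permutation p = 0.8, adjusted p = 0.8). MERVL-int, for reference, fell by 2.54 on the log2 scale (± 0.53, limma adjusted p = 0.018). Of 7 tested 2CLC markers, 5 fell, and all were at 0 in the 3 Dppa4KO_DMSO libraries; of 7 feeder markers only Thy1 fell (log2 fold change −0.92, limma adjusted p = 0.023), and of 7 pluripotency markers only Klf4 rose (1.01, limma adjusted p = 0.0025). The 7 feeder markers had a median log2 fold change of −0.92 and were all below 0. The 9 listed feeder markers summed to 4797 to 6242 in WT_DMSO and 3986 to 4471 in Dppa4KO_DMSO, and the 9 of 2CLC to 108 to 1705 and to 0. Their part in the B2_Mm1 values was not tested.

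**Figure D4:**
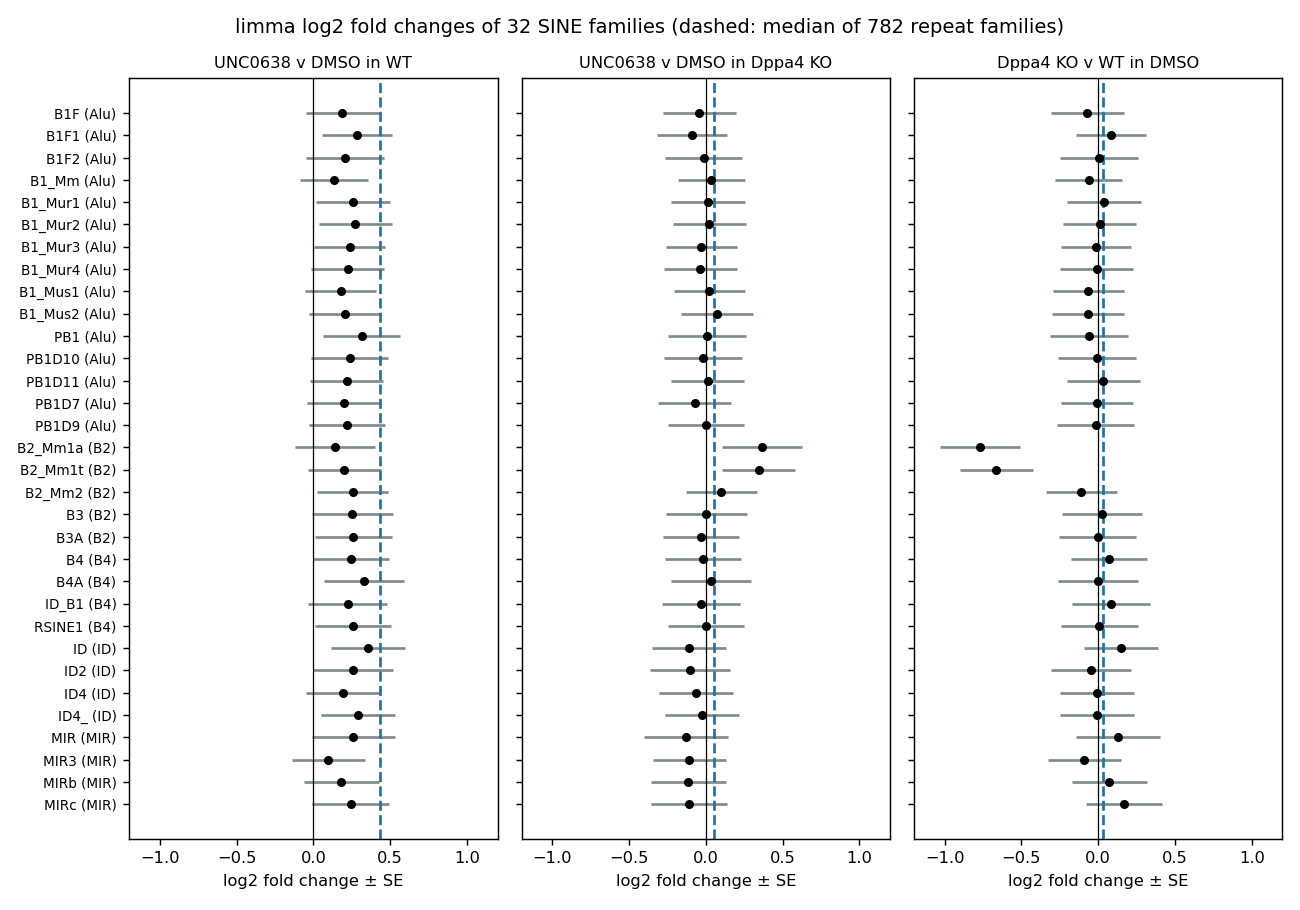
limma log2 fold changes ± SE of 32 SINE families in 3 comparisons of the Dppa4 experiment (12 libraries, 3 per group); the dashed line is the median of 782 repeat families, and FAM, AmnSINE1 and AmnSINE2, with under 100 counts in every library, are left out for their wide errors. In WT all 32 points lie between 0 and the dashed line (on scaling to the repeat total the SINE median is −0.16), and in the comparison of genotypes B2_Mm1a and B2_Mm1t lie apart at −0.77 and −0.66.

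The genes that make, bind or silence SINE RNA were taken from a list of RNA polymerase III subunits, its factors TFIIIC and TFIIIB, the repressor Maf1, SINE RNA binding proteins, the ChAHP complex, H3K9 methyltransferases and noncoding RNAs. The genes tested were 11 subunits, 9 TFIIIC and TFIIIB genes, Maf1, 3 binding proteins, 3 ChAHP genes, 8 methyltransferases and partners and 3 noncoding RNAs. UNC0638 in WT called 0 of these by limma, and 0% of 17271 genes. UNC0638 in Dppa4 KO called only Srp9, a signal recognition particle protein that binds the 7SL and B1 fold (0.585% of all genes called). Srp9 read 472, 495 and 585 with DMSO and 859, 1129 and 1350 with UNC0638, so the groups did not overlap (log2 fold change 1.09 ± 0.18, limma adjusted p = 0.018). In WT it was not called, but read 782, 774 and 878 with DMSO and 1103, 1077 and 964 with UNC0638, also without overlap. In KO against WT with DMSO, 3 listed genes were called, a share of the list near the 6.63% called of all genes. Srp9 fell (782, 774 and 878 in WT, log2 fold change −0.65 ± 0.18, limma adjusted p = 0.035). Of the 11 polymerase subunits, Polr3k fell and Polr3gl rose. Polr3gl, the paralogue of Polr3g used in differentiated cells, read 116, 69 and 138 in WT and 243, 180 and 219 in KO (1.03 ± 0.28, limma adjusted p = 0.040). Polr3k read 259, 289 and 337 in WT and 150, 173 and 187 in KO (−0.79 ± 0.22, limma adjusted p = 0.038). The interaction called 0 of the listed genes and 0% of all genes.

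In the group means, the polymerase genes and the short RNAs can be set side by side without a test. In 2CLC against mESC with DMSO, the 11 subunits had a median log2 ratio of −0.04, with Polr3gl the lowest (166 to 37) and Polr3a the highest (90 to 152). Of the TFIIIC genes, Gtf3c6 went from 212 to 515, and of the ChAHP complex, which binds and restrains SINE copies, Adnp went from 1590 to 946. Rn7sk, the polymerase III transcript 7SK that restrains transcription elongation, went from 42 to 688, and with dTAG from 79 to 844. The 7SL genes Rn7s1 and Rn7s2 were higher too, from 27 to 105 and from 25 to 108. With dTAG they went from 34 to 160 and from 35 to 144. All of these values are by the authors' size factors. Bc1 was seen in the time course alone, at 52 and 76 counts with DMSO and dTAG at 24 h and 74 and 132 at 7 d, against 0 to 5.3 in the other 7 groups with a mean.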

How the data were processed

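RNA-seq was deposited as tables of gene and repeat-family signal, in which the authors divided TEcounts counts by DESeq2 size factors after trimming with Trim Galore 0.6.7 and alignment with STAR 2.7.10 to mm10, with multi-mapping reads placed once at random. The 3 degron tables hold the authors' group means. The authors' own fold changes and p-values, deposited in further tables, were not used. For the Dppa4 experiment, 100% of values above 0 came out as whole reads (tolerance 0.01). log2(value + 1) was fitted with limma 3.58.1 in R 4.3.3 (trend, 4 groups, 782 of 1146 families passing the filter of edgeR 4.0.16), with Benjamini-Hochberg adjustment over all families and calls under 0.05; edgeR and DESeq2 1.42.0 on recovered reads were alternatives. Group means were compared as log2 ratios (pseudocount 1, mean of at least 10). Permutation tests used scipy 1.17.1. Named families were a fixed panel, every call, and the 3 highest and 3 lowest per comparison; families named for not overlapping were listed after their values were seen. The members and lists were chosen with earlier results of these data known.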

Additional observations from a re-analysis of the deposited data

How the results depend on the processing

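In the Dppa4 experiment, counts of SINE calls were 0 in all 4 comparisons under 94 of 96 alternatives. The exceptions were both in Dppa4 KO against WT, where 2 families were called, B2_Mm1a and B2_Mm1t: adjusting over genes and repeats together, and leaving out Dppa4KO_UNC0638 replicate 3. Over all alternatives of that comparison the limma, edgeR or DESeq2 adjusted p of B2_Mm1a ran from 0.043 to 0.685 and that of B2_Mm1t from 0.040 to 0.862, and both log2 fold changes stayed below 0 (−0.87 to −0.58). The 12 libraries left out in turn gave 0 to 2 calls there. Scaled to the repeat total, the SINE median became −0.16 for UNC0638 in WT and 0.22 for the interaction; scaled to the 33 other SINE families, a choice made after seeing the data, −0.00028 and −0.017. Leaving out a library moved the median between −0.15 and 0.22 for UNC0638 in KO and between −0.39 and −0.011 for the interaction, from the value without Dppa4KO_UNC0638 replicate 1 to that without replicate 3. In KO against WT, the 5 repeat families called became 0 without WT_DMSO replicate 2 or Dppa4KO_DMSO replicate 2, 1 without Dppa4KO_DMSO replicate 1, 8 without Dppa4KO_UNC0638 replicate 3 or with scaling to the repeat total, 12 with genes included and 2 at a mean of at least 100.

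The differences in SINE share turned sign with the denominator or a library: 0.33 points for UNC0638 in WT as a share of gene and repeat reads, −2.40 (without Dppa4KO_DMSO replicate 3) to 4.62 on leaving out a library for UNC0638 in KO, −3.84 to 2.99 for KO against WT (above 0 without WT_DMSO replicate 1 or Dppa4KO_DMSO replicate 3), and 0.81 for KO against WT without RLTR17B_Mm, MERVL-int and MT2_Mm, an alternative added after seeing the data. The cause was not tested.

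In the group means, scaling to the total of all repeat families moved the SINE median to −0.28 for DMSO at 7 d against 24 h, −0.26 for dTAG at 15 d, 0.43 for Recovery against dTAG, −1.64 and −2.09 for 2CLC against mESC with DMSO and dTAG, and −0.22 and −0.66 for dTAG in mESC and 2CLC. It moved by under 0.1 in the other 43 of 50 alternatives. With that scaling 27 SINE families were past 1.5-fold for dTAG in 2CLC, against 0. Over all 911 repeat families the count was 359, against 254.

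A paired fit with the replicate number as a block called 0 SINE families in all 4 comparisons, and 7 repeat families against 5 in KO against WT. Same-numbered libraries correlated between −0.11 and 0.21, with 3 of 18 pairs over 0.1, and 7 of 12 libraries correlated best with their own number, so the numbers were not treated as pairs. The depth of the group means is unknown.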
